A study of Caenorhabditis elegans with 2 samples.

Results

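The 6 Hox genes of Caenorhabditis elegans (lin-39, ceh-13, mab-5, egl-5, php-3 and nob-1) were examined for regions bound by LIN-39, the protein that the first of them encodes. The genes were taken by name and located in the Ensembl annotation of the WBcel235 genome (ce11), where they are 6 of 19973 protein-coding genes of the nuclear chromosomes. Every region whose summit lay in 1 of these genes or within 20 kb of it was counted. This gave 4 of the 1488 peaks of the submitters' thresholded (optimal) set and 50 of the 30000 pooled ranked regions. It also gave 46 of the 30000 regions of replicate 1 and 55 of the 30000 regions of replicate 2. By signal, the optimal peaks were the 1488 strongest regions of the pooled list. Membership alone therefore does not show how a peak ranked in each replicate.

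Binding had been profiled by chromatin immunoprecipitation and sequencing (ChIP-seq) in whole, mixed-sex larvae of the L1 stage, the first larval stage. The strain was OP18, with the genotype unc-119(ed3) III; wgIs18, in which the insertion wgIs18 targets lin-39 and the immunoprecipitated protein is described as an eGFP fusion of lin-39. The design held a single group, in 2 biological replicates, and no other genotype, stage or treatment. The promoter that drives the tagged gene, the extent of the inserted DNA and its copy number are stated neither in the labels nor in the file notes. No mutation of the animals' own lin-39 is listed, and whole larvae mix all cell types, so a region cannot be placed in a cell.

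Hox genes encode homeodomain transcription factors that give cells their identity along the head-to-tail axis. In C. elegans they lie in 3 pairs on chromosome III. ceh-13, the labial-type gene, acts in the anterior body. lin-39 acts in the mid-body, where it is known for its part in the vulval precursor cells, in migrating neuroblasts and in ventral cord motor neurons, and it has been reported to maintain its own expression in vulval precursor cells. mab-5 acts in the posterior body, and egl-5, php-3 and nob-1, the Abdominal-B-type genes, act in the tail region and the posterior of the embryo. Hox proteins bind DNA by a homeodomain, often together with PBC-class cofactors, and they can act on one another's genes.

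Regions were ranked within each list by the submitters' signal value, so rank 1 is the strongest of a list. This score has no stated scale and its range differs between lists, so ranks are compared and signals are given for single regions only. The ranked lists are long on purpose and reach down to background. Of the 50 pooled regions, the 46 outside the optimal set had a deposited −log10 q between 0.19 and 2.58 with a median of 0.355, against 3.51 for the optimal peaks. Those in or within 5 kb of a Hox gene, 21 in number, reached at most 1.09. Read numbers are not part of the lists, so the depth is unknown and no interval can be given. With 1 group there was nothing to test, and all statements are descriptions of these lists.

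The sequences under 6 summits show the kinds of place described below. They are the optimal peak nearest to a Hox gene, the strongest pooled regions inside mab-5 and nob-1, and the strongest intergenic pooled regions within 5 kb of mab-5, egl-5 and nob-1. Each is the 201 bases centred on the pooled summit, on the plus strand of the RefSeq WBcel235 sequence, 5′ to 3′. Capitals mark matches to TGATNNAT, the composite site of Hox proteins with PBC cofactors, or to TAATTA, a homeodomain core, on either strand. mab-5, php-3, nob-1 and lin-39 are transcribed from the minus strand, ceh-13 and egl-5 from the plus strand.
ceh-13 downstream peak, III:7559905-7560105: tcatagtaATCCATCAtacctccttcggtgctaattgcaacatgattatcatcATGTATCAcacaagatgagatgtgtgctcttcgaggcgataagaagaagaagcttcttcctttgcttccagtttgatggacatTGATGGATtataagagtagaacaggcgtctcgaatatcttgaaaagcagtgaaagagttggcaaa
mab-5 intron 3, III:7781537-7781737: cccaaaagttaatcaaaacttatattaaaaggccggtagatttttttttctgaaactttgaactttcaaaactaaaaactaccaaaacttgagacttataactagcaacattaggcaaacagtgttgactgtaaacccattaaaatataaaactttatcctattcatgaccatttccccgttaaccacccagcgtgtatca
mab-5 upstream, III:7786102-7786302: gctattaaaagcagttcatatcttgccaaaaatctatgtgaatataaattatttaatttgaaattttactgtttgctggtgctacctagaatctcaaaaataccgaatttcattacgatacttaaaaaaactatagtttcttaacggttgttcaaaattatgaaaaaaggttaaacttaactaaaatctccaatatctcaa
egl-5 downstream, III:7817942-7818142: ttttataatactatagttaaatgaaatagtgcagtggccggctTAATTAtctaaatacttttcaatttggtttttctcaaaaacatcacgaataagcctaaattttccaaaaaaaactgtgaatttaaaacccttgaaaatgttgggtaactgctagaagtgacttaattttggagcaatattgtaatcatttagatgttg
nob-1 intron 3, III:12078875-12079075: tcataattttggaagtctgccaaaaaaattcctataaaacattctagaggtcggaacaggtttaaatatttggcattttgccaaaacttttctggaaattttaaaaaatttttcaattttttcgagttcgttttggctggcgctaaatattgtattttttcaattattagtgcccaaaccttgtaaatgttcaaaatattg
nob-1 upstream, III:12086562-12086762: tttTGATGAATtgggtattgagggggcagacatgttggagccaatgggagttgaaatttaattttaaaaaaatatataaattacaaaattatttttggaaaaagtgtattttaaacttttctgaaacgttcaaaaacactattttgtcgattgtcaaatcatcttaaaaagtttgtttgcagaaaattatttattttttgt
The ceh-13 window held 3 matches to TGATNNAT, the egl-5 window 1 match to TAATTA and the nob-1 upstream window 1 match to TGATNNAT. The other 3 windows held neither motif.

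lin-39 stood apart from the other 5 genes by having no pooled region at all. The gene (III:7528641-7536632) and the 20 kb on either side of it held 0 optimal, 0 pooled, 1 replicate 1 and 2 replicate 2 summits, and all 3 of the replicate summits lay more than 14 kb from the gene. Of all protein-coding genes, 99% had a pooled summit in the gene or within 20 kb, and 5 of the 6 Hox genes did. A count of 0 was thus shared by 0.956% of all genes. None of the 5 introns of lin-39, of which the longest measured 2680 bp, held a region of any list.

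The stretch without a pooled region ran from III:7502291 to III:7559834, 57544 bp, and reached 26350 bp downstream and 23202 bp upstream of lin-39. It took in the whole 19027 bp between lin-39 and ceh-13, with the noncoding RNA gene linc-57 and the microRNA gene mir-231, and ceh-13 itself (III:7555660-7558041). Pooled regions lay 0.299 per kb over the nuclear genome, a density at which a length of 57544 bp would hold 17.2. Among the 28361 stretches between pooled regions, merged where they overlap, 16 were at least this long including this one, and it was the only one of that length among 4482 on chromosome III. The median stretch measured 1670 bp.

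Both replicates had the gap separately, over a shorter length. The stretch around lin-39 measured 50386 bp in replicate 1 and 45551 bp in replicate 2, where 16 of 28324 and 12 of 28428 stretches were as long. The right border was the same in each list, the peak downstream of ceh-13. On the left side, replicate 1 had 1 region inside the pooled stretch, in an intron of cls-1 (rank 22552), a gene for a CLASP-type microtubule protein. Replicate 2 had 3 there, of which the strongest lay 388 bp upstream of cls-1 (rank 4529) and the others ranked 16463 and 22806. The left border of the pooled stretch was a weak region in a coding exon of sap-140 (rank 25768).

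**Figure D1:**
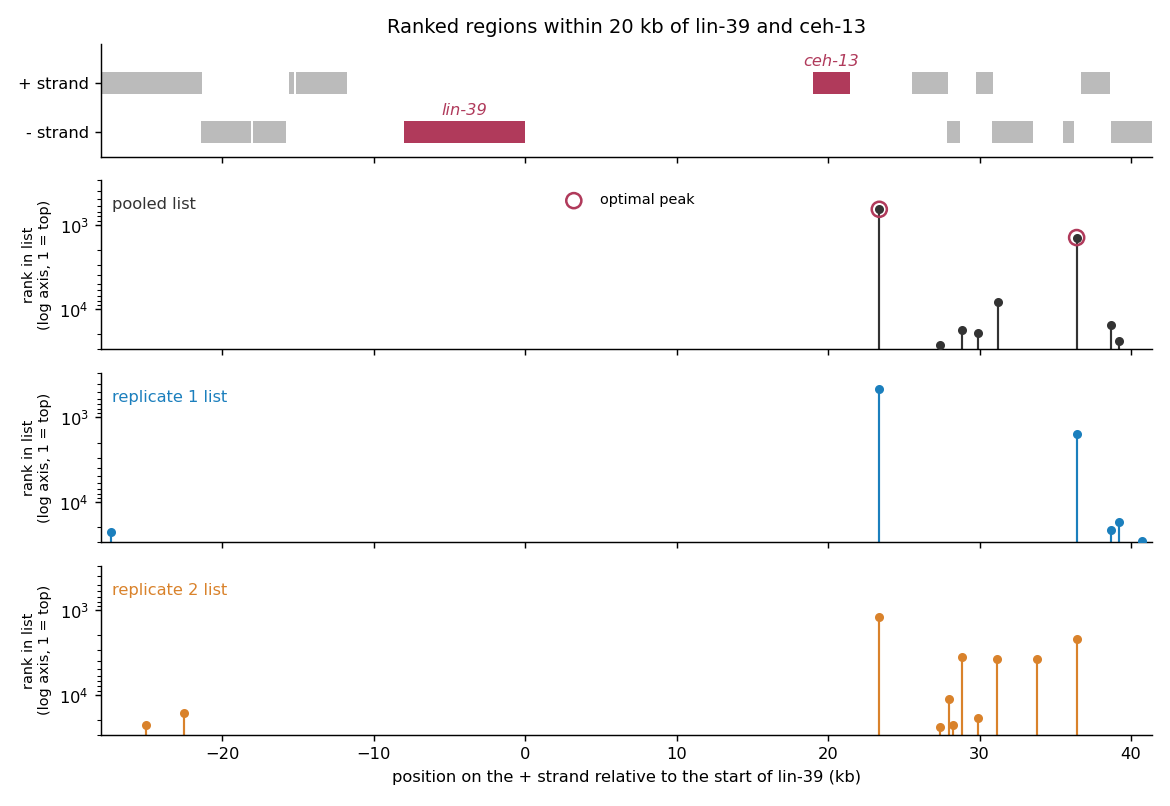
Rank of every region within 20 kb of lin-39 or ceh-13 (y axis, log scale, rank 1 at the top) against its position relative to the start of lin-39 in kb (x axis), for the pooled list, replicate 1 and replicate 2, with protein-coding genes above (Hox genes in red) and optimal peaks circled. No list had a region in lin-39, in ceh-13 or between them, and all 3 had the peak 1964 bp past the end of ceh-13.

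The lin-39 stretch was close to its chromosome in GC content and had fewer masked bases. It contained 7 protein-coding genes whole: cls-1, clk-2, cux-7, C07H6.2, lig-4, lin-39 and ceh-13. Its GC content was 34.9%, against 35.7% for chromosome III, and 27.7% of its bases were soft-masked (in lower case, as repeats, in the reference), against 39.9% of the chromosome. Whether reads there were lost in mapping, filtering or comparison with the control was not tested, since the lists hold no coverage. Reads from the inserted lin-39 and from the animals' own copy cannot be told apart in such lists, and the part of the insertion in the stretch was not tested.

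unc-119, the gene named in the strain's genotype, showed no such gap. At unc-119 (III:10902641-10908935), 22 pooled summits lay in the gene or within 20 kb, 2 of them in the gene, with 23 in each replicate list. The longest stretch that touched it measured 5025 bp. Its best pooled rank was 3056, and none of its regions was in the optimal set. What these counts mean for the part of the insertion in the lin-39 stretch was not tested.

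The other stretches at least as long as that around lin-39, which ceh-13 shares, lay on other chromosomes. The next longest on III measured 55061 and 52964 bp. Of the 16 stretches, 7 were on V, 5 on II, 2 on IV, 1 on I and 1, that of lin-39, on III. The longest measured 237249 bp on V with 53 whole genes, among them irld-35, clec-209 and F56A4.10, and the next 110414 bp on II with clec-20, bath-46 and bath-26. Others on II held fbxa-184, btb-7 and btb-6, or bath-7, bath-2 and F52C6.4, or eyg-1, ZK938.1 and ZK938.12, or F46F5.16, F46F5.15 and F46F5.1. Others on V held rpm-1, C01B7.7 and F07B7.14, or the chemoreceptor genes str-217, sri-9 and srh-131, or F20E11.7, srw-72 and F20E11.17, or srw-51, srbc-26 and srbc-25, or srh-132, T27C5.12 and clc-21, or F14D7.1, F14D7.18 and F14D7.2. Those on IV and I held Y73B6A.3, or C35B1.7, F49F1.14 and F49F1.15, or F35E2.8, F35E2.9 and F35E2.2. Names with clec, bath, btb and fbxa belong to C-type lectin, MATH/BTB and F-box families, and names with str, sri, srh, srw and srbc to chemoreceptor families.

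The lin-39 stretch had 1 replicate 1 and 3 replicate 2 summits inside it, against 1 to 9 and 1 to 11 in the other 15 stretches. It held 7 whole protein-coding genes, against 1 to 53 with a median of 22 in the other 15. Its GC content of 34.9% lay inside their range of 30.5 to 41.6%.

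**Figure D2:**
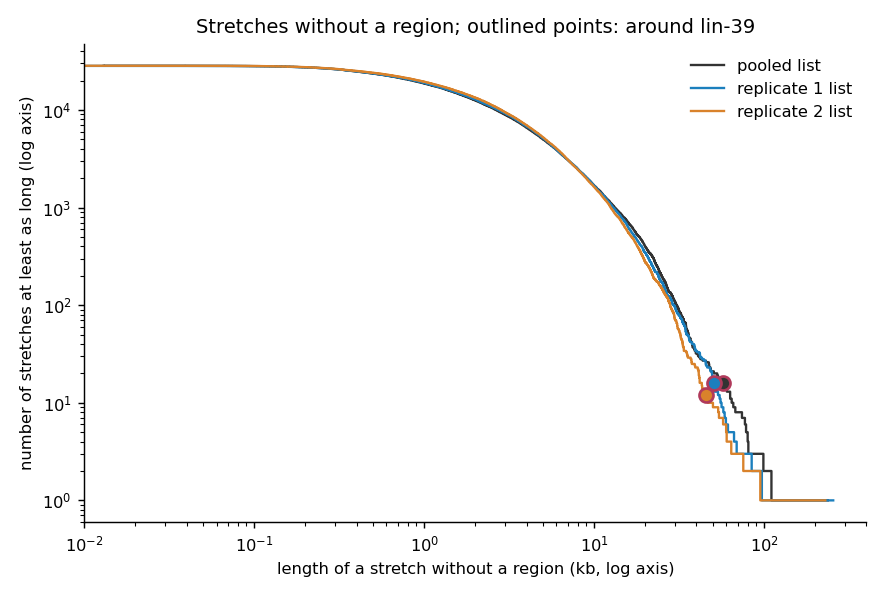
Number of stretches without a region that are at least as long as the length on the x axis (kb), both on log axes, for the pooled list and each replicate list, with outlined points for the stretch around lin-39. The 3 points, at 57544, 50386 and 45551 bp, sit in the far tail of their curves, where 12 to 16 stretches are as long.

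ceh-13 had no region within the gene in any list but had the strongest pooled region of the 3 loci just beyond its 3′ end. It was also the strongest in replicate 1, while in replicate 2 a region in intron 3 of mab-5 (rank 876) stood above it. This optimal peak (III:7559835-7560174) had its summit 1964 bp past the end of ceh-13 and 2167 bp upstream of lgc-12, a ligand-gated ion channel gene, in intergenic sequence. Its signal was 86.4 in the pooled list (rank 659), 65.5 in replicate 1 (rank 460) and 26.5 in replicate 2 (rank 1192), and the replicate summits lay 41 bp apart. It was the only optimal summit within 5 kb of any Hox gene. 1 of the 6 Hox genes thus had an optimal summit in or within 5 kb of it, against 19.4% of all protein-coding genes, and 2 of 6, ceh-13 and mab-5, within 20 kb, against 44.3%.

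The matches to TGATNNAT in the ceh-13 peak began 92 and 47 bp before the summit on the minus strand and 36 bp after it on the plus strand. Windows with at least 3 matches numbered 1 of the 50 at the Hox loci, against 72 of all 30000 pooled summits (0.24%) and 9 of the 1488 optimal summits (0.605%). This count was looked at after the matches had been seen.

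The other 7 pooled regions near ceh-13 lay at other genes. The optimal peak at III:7572866-7573205, with its summit 205 bp upstream of the ribosomal protein gene rpl-9, ranked 1425 in the pooled list, 1575 in replicate 1 and 2184 in replicate 2. Between this peak and the one beside ceh-13, 4 pooled regions had a counterpart in replicate 2 alone, with pooled ranks from 8322 to 26369. The last 2, beyond rpl-9, had a counterpart in replicate 1 alone. With 0.189 pooled summits per kb of its window, ceh-13 was at or above 24.4% of all genes.

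mab-5 was the Hox gene with the most regions. Its window held 23 pooled, 20 replicate 1 and 22 replicate 2 summits, and 8, 4 and 6 of these lay within the gene (III:7776835-7783454). Its 0.493 pooled summits per kb were at or above those of 93.5% of all protein-coding genes. The median was 0.245 per kb over the 6 Hox genes, against 0.273 per kb over all genes. Pooled summits within the gene were found at 2 of the 6 Hox genes, mab-5 and nob-1, against 40% of all genes.

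All 8 pooled summits within mab-5 were in introns, 5 of them in intron 3, 2 in intron 4 and 1 in intron 1. Most of the gene's 6620 bp is intron: introns 1, 2, 3 and 4 measure 269, 685, 3564 and 999 bp. The counts were not tested against these lengths, so no preference for introns can be read from them. Intron 3 is the longest at 3564 bp. Its strongest region had its summit at III:7781637, 1817 bp into the gene, with a pooled signal of 28.2 (rank 4897). In replicate 2 that place ranked 876 with a signal of 31.7, the best rank of any replicate 2 region at the 3 loci. Replicate 1 had no region there. The next summit in intron 3, at III:7781145, had the opposite pattern, with rank 17332 in the pooled list, rank 6728 in replicate 1 and no region in replicate 2. The other 3 pooled regions of intron 3 ranked 20100, 25349 and 26048 and overlapped regions of replicate 2 alone, with ranks of 26745 (shared by 2 of them) and 15970.

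In intron 4, the region with its summit at III:7778322 ranked 5126 in the pooled list and 3608 in replicate 2, with none in replicate 1. Its weak neighbour at III:7777829 ranked 29773 in the pooled list and 16789 in replicate 1, with none in replicate 2. The only pooled region inside mab-5 with a counterpart in both replicates was that in intron 1, 342 bp into the gene at III:7783112. It ranked 5767 in the pooled list, 4063 in replicate 1 and 23210 in replicate 2, with summits 35 bp apart. So 1 of the 8 pooled regions was in both replicate lists, 2 in replicate 1 alone and 5 in replicate 2 alone.

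Upstream of mab-5, 1 pooled region was in both replicate lists. This region with its summit 2748 bp upstream, at III:7786202, had a pooled signal of 28.4 (rank 4815), ranked 6903 in replicate 1 and 15576 in replicate 2, and had replicate summits 92 bp apart. A region 1120 bp upstream ranked 14862 in the pooled list and 3073 in replicate 2, with none in replicate 1. Replicate 2 also had a region 137 bp upstream of the start (rank 2312) that was not in the pooled list. In the start window, 2000 bp upstream to 500 bp downstream of a gene start, mab-5 had 2 pooled summits, 1 replicate 1 summit and 4 replicate 2 summits.

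The 2 optimal peaks in the mab-5 window lay past its 3′ end, near other genes. The nearer one (III:7771051-7771390) was 5614 bp from mab-5 and 1101 bp upstream of snu-23, a gene for a spliceosomal protein. It had a signal of 68.2 (rank 960) in the pooled list, 45.9 (rank 863) in replicate 1 and 20.5 (rank 1927) in replicate 2, and its replicate summits lay 4 bp apart. The farther one (III:7766087-7766426) was 10578 bp from mab-5 and 205 bp upstream of ZK686.2. It ranked 1121 in the pooled list and 1179 in replicate 1, but 14468 in replicate 2. Between them, a region at ZK686.5 ranked 2843 in the pooled list, 5657 in replicate 1 and 21065 in replicate 2.

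**Figure D3:**
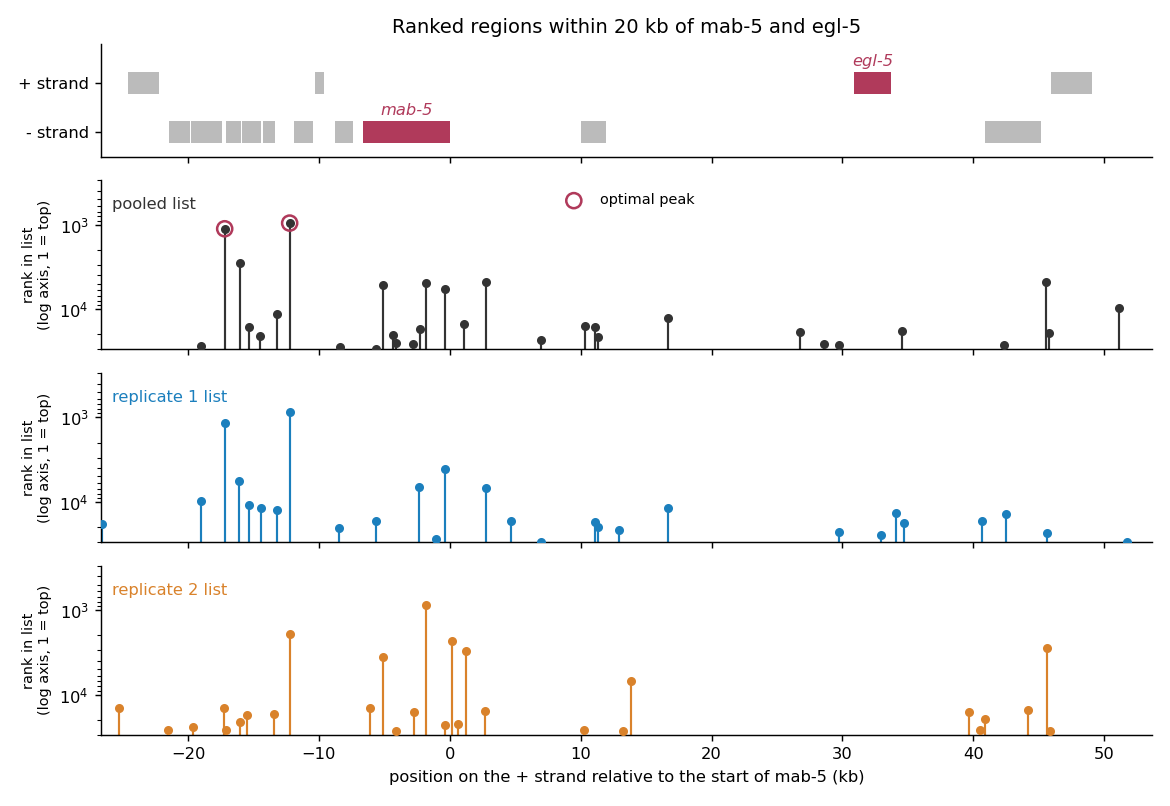
Rank of every region within 20 kb of mab-5 or egl-5 (y axis, log scale, rank 1 at the top) against its position relative to the start of mab-5 in kb (x axis), for the pooled list, replicate 1 and replicate 2, with protein-coding genes above (Hox genes in red) and optimal peaks circled. The replicates differed inside mab-5, where replicate 2 ranked a region of intron 3 at 876, and replicate 2 had no region from III:7797470 to III:7822998, around egl-5.

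egl-5 had only weak pooled regions within 5 kb, and none of them was in both replicate lists. No pooled summit lay in the gene (III:7814374-7817141), and 4 lay within 5 kb, with ranks from 18302 to 26525. The best was 901 bp past the end of the gene, at III:7818042, with rank 17855 in replicate 1 and no region in replicate 2. The region 1218 bp upstream of the start ranked 26525 in the pooled list and 22724 in replicate 1, again with none in replicate 2. The other 2, 2304 and 4146 bp upstream, overlapped no region of either replicate.

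In replicate 2, egl-5 lay in an empty stretch of 25529 bp, and 140 of the 28428 stretches of that list (0.492%) were as long. The stretch touching egl-5 measured at most 2893 bp in replicate 1 and 4546 bp in the pooled list. Replicate 1 had 1 summit within egl-5, at a UTR (rank 24671). A region found in both replicates but not in the pooled list lay farther out, with its replicate 1 summit 7009 bp past the end of egl-5 (rank 16943) and overlapping replicate 2 regions of ranks 19675 and 26472. The strongest pooled region in the egl-5 window lay 11902 bp past its end and 368 bp upstream of kcmf-1, with rank 4819 in the pooled list, 23435 in replicate 1 and 2787 in replicate 2. In all, the window held 11 pooled summits, 0.257 per kb, at or above 44.4% of all genes. The 30919 bp between mab-5 and egl-5 held 10 pooled, 8 replicate 1 and 7 replicate 2 summits, none of them optimal.

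php-3 and nob-1 lie 236 bp apart and shared all 11 pooled summits of their windows, none of them optimal. No list had a region inside php-3 (III:12074218-12077556), which lay in a stretch without regions of 10815 bp in the pooled list, 12639 bp in replicate 1 and 6791 bp in replicate 2. Such lengths are not rare: 5.25% of the pooled stretches were as long as 10815 bp. Per kb, the php-3 window held 0.254 pooled summits and the nob-1 window 0.236, at or above 43.7% and 37.9% of all genes.

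nob-1 (III:12077793-12084316) had 3 pooled summits inside it. The strongest, at III:12078975, had a signal of 27.7 (rank 5181) and lay in intron 3 of the longest coding transcript of nob-1, in an exon of another transcript without annotated coding sequence, 1419 bp upstream of the php-3 start. It ranked 14031 in replicate 1 and 4997 in replicate 2, with summits 170 bp apart. A second pooled region, with its summit at III:12079190 (rank 24819), overlapped the same 2 replicate regions, so these are not 2 separate agreements. The third, in intron 2, which measures 4330 bp, ranked 28029 in the pooled list and 13330 in replicate 1, while the replicate 2 region of that intron (rank 28395) lay elsewhere in it.

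Upstream of nob-1, 6 pooled regions followed one another out to 9331 bp from the start, and 1 of them was in both replicates. That region, 2346 bp upstream at III:12086662, had a signal of 27.3 (rank 5470), ranked 13768 in replicate 1 and 11224 in replicate 2, and its replicate summits lay 215 bp apart, the widest gap at the 3 loci. The other 5 ranked from 15060 to 22422, with 1 in replicate 2 alone, 4010 bp upstream (rank 5556 there), and 4 in replicate 1 alone. Replicate 2 had a further region 1690 bp upstream (rank 5559) that was not in the pooled list. Pooled summits in the start window were found at 3 of the 6 Hox genes, mab-5 (2), egl-5 (1) and php-3 (2), against 54.9% of all genes. The 2 at php-3 were the regions in intron 3 of nob-1 described above, which overlapped the same 1 region in each replicate. In its own start window, nob-1 had none in the pooled list and 1 in replicate 2.

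The strongest region in the windows of php-3 and nob-1 lay at another gene. Its summit, at III:12058686, was 15532 bp from php-3 and 228 bp upstream of arx-3, which encodes a subunit of the actin-nucleating Arp2/3 complex. Its signal was 46.0 (rank 1699) in the pooled list, 28.6 (rank 1955) in replicate 1 and 19.2 (rank 2206) in replicate 2, with summits 20 bp apart. At a −log10 q of 2.58 it was the strongest region of the 3 loci outside the optimal set, which ended at a signal of 50.03.

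**Figure D4:**
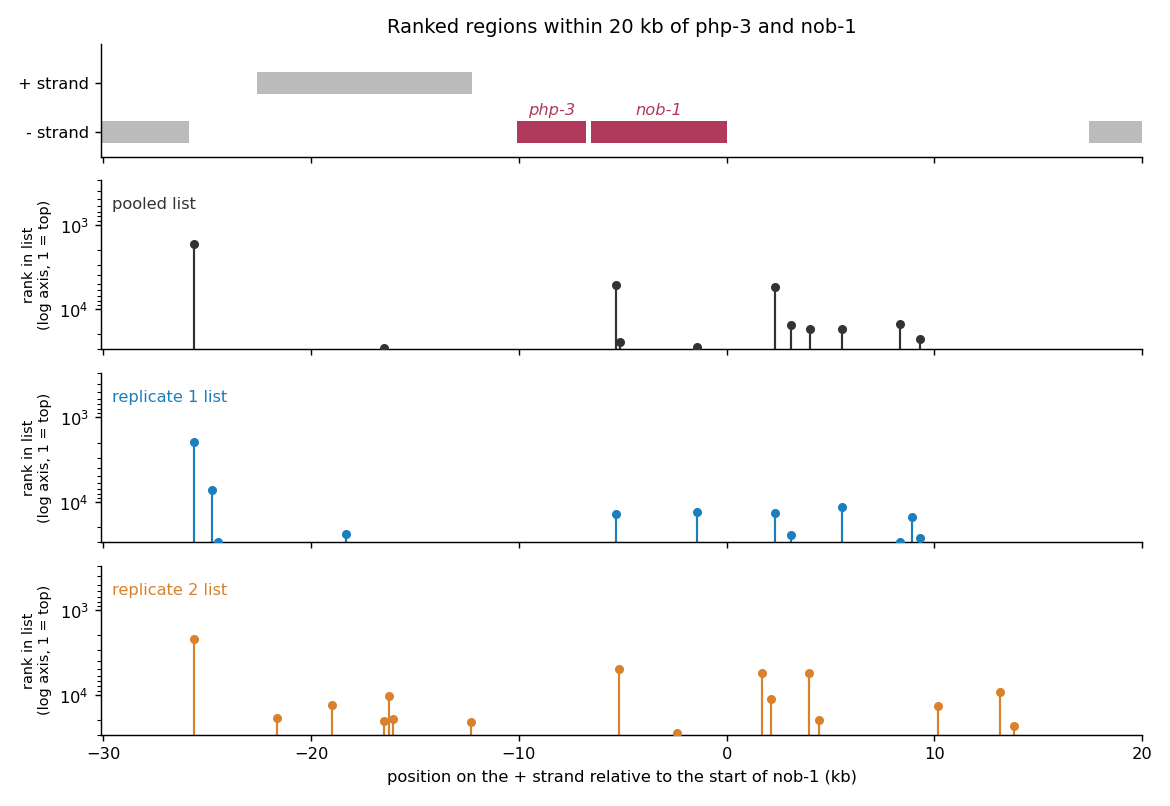
Rank of every region within 20 kb of php-3 or nob-1 (y axis, log scale, rank 1 at the top) against its position relative to the start of nob-1 in kb (x axis), for the pooled list, replicate 1 and replicate 2, with protein-coding genes above (Hox genes in red). php-3 held no region in any list, nob-1 held 3 pooled regions, and the strongest region, of rank 1699, lay 15532 bp from php-3.

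Set side by side by their best pooled rank within 20 kb, the order was ceh-13 (659), mab-5 (960), php-3 and nob-1 (1699, the same region) and egl-5 (4819), with none for lin-39. The median of the 5 was 1699, against 1816 for all genes with a region (quartiles 659 and 4423). All 4 of these best regions lay outside the Hox gene itself, and by nearest start they belonged to lgc-12, snu-23, arx-3 and kcmf-1. Within the genes, the best pooled ranks were 4897 for mab-5 and 5181 for nob-1. By the place of the summit, 24 of the 50 pooled regions were intergenic, 19 in introns, 6 in coding exons and 1 in a UTR. Hox introns held 11 of the 19. For 19 of the 50, the nearest protein-coding start was that of a Hox gene. No shares over all pooled regions are set beside these counts of places and nearest starts, so they describe these loci alone.

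Agreement between the replicates at these loci followed rank. Of the 50 pooled regions, 15 overlapped a region of both replicates by at least 1 bp, 19 of replicate 1 alone, 13 of replicate 2 alone and 3 of neither. That is 30% in both, against 34.99% of all 30000 pooled regions. Outside the optimal set it was 11 of 46, 23.9%, against 31.6% of all 28512 such regions. Weighted to the same blocks of 3000 ranks, all 30000 pooled regions, optimal peaks included, gave 29.5%. Of the 6 Hox-locus regions among the 3000 strongest of the list, 6 were in both replicates, and of the 7 in the next 3000, 5 were, against 93.6% and 64.4% of all regions in these blocks.

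Where both replicates had a region, their summits lay 4 to 215 bp apart with a median of 80 bp (n = 15 pooled regions, some sharing a replicate region). The ranks agreed little: across these 15 regions Spearman's rho between replicate ranks was 0.24, and across the 11 outside the optimal set it was -0.47, against 0.19 across all 9018 such regions. These values run across regions of the same 2 libraries and are descriptions. The pooled regions at III:7829043 and III:7829253 overlapped the same replicate regions, as did those at III:12078975 and III:12079190. Each such pair entered both of these Hox-locus values as separate regions with identical replicate ranks. Taken from the side of the replicates, 14 of the 46 replicate 1 regions (30.4%) overlapped a replicate 2 region, against 36.9% over that list, and 17 of the 55 replicate 2 regions (30.9%) overlapped a replicate 1 region, against 36.8%. Of these regions, 13 of replicate 1 and 27 of replicate 2 overlapped no pooled region.

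**Figure D5:**
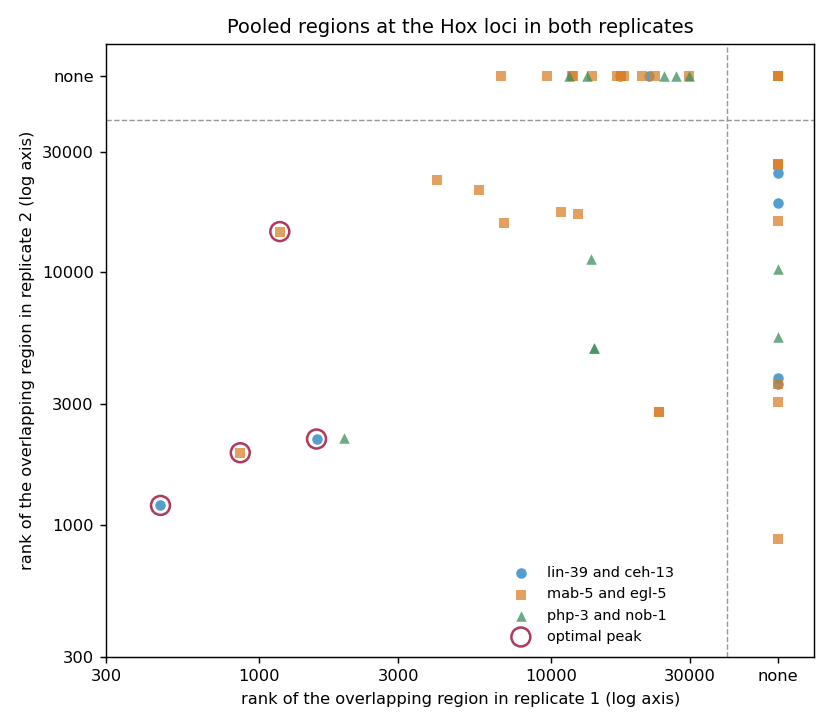
Rank of the overlapping region in replicate 2 (y axis) against that in replicate 1 (x axis), both log axes, for the 50 pooled regions at the 3 Hox loci, with regions missing from a replicate in the margins and optimal peaks circled. 15 regions had a rank in both lists, 19 in replicate 1 alone and 13 in replicate 2 alone, and the intron 3 region of mab-5 stood at rank 876 in replicate 2 with none in replicate 1.

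Hox motifs were about as frequent at the Hox loci as elsewhere. TGATNNAT occurred within 100 bp of 8 of the 50 pooled summits, 16%, against 15% of all pooled summits and 17% of the optimal ones. TAATTA occurred at 7 of 50, 14%, against 12.3% of all pooled summits and 7.80% of the optimal ones. The median GC content of these windows was 31.8% at the Hox loci, against 31.3% over the pooled list. A match is a string of letters, and its occupancy was not measured.

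Optimal peaks were also counted at 41 genes that act on or with Hox genes or have been reported downstream of lin-39. Of these, 13 had an optimal summit in or within 5 kb of the gene, against 19.4% of all protein-coding genes and 1 of the 6 Hox genes. The list was chosen with earlier results of these data known, and it was not tested. Among 5 cofactor genes, unc-62, of the Meis/Prep class, had its strongest at a UTR inside the gene (signal 193.5; rank 168 in replicate 1 and 95 in replicate 2). None was found at psa-3 or at the genes of the PBC class, ceh-60, ceh-40 and ceh-20.

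Polycomb-like and trithorax-like regulators, which repress or maintain Hox expression, had 5 of 12, against 19.4% of all protein-coding genes. This difference was not tested. The peak of mes-2, the E(z)-type histone H3K27 methyltransferase, lay 107 bp upstream of its start (signal 80.8; rank 595 in replicate 1 and 781 in replicate 2). Those of the Polycomb-like genes sor-1, sor-3 and sop-2 lay 463, 253 and 601 bp upstream, with signals of 147.9, 106.5 and 56.4. The sop-2 peak ranked 4380 in replicate 1 and 792 in replicate 2. The stronger peak of ash-2, a trithorax-group gene, lay 528 bp inside the gene (signal 76.1).

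Regulators of Hox expression had 4 of 14, against 19.4% of all protein-coding genes, and the strongest peak of each is given. That of lin-40, an MTA-type chromatin gene, was 898 bp upstream of the gene (signal 63.3; rank 4252 in replicate 1 and 453 in replicate 2). For lin-22, a Hairy-type bHLH gene, and sys-1, a beta-catenin gene, the summit lay past the 3′ end (signals 62.7 and 284.8), and for egl-27, also MTA-type, in an intron of its neighbour tbc-6 (76.2). Genes reported downstream of lin-39 had 3 of 10, against the same 19.4%. For mig-13, which promotes the anterior migration of neuroblasts, the summit lay 2345 bp upstream (signal 62.9). For cfi-1, an ARID-domain factor gene, it lay past the end of the gene, 10935 bp downstream of the start (153.1). For sem-5, the GRB2-type adaptor gene, it lay past the end in an intron of dct-1, 7143 bp downstream of the sem-5 start (55.0). The cfi-1 summit lay between cfi-1 and sys-1, nearer to sys-1, and was also within 5 kb of sys-1.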

How the data were processed

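Whole L1 larvae of 1 group were profiled in 2 biological replicates, per the labels. Per the submitters' file notes, the region lists were made from alignments and a control, neither of which was analysed here. The software for alignment and peak calling, and the threshold of the optimal set, were not given in the sources used here. Signal values, deposited as a score by the authors with no stated scale, gave the ranks within a list. The deposited −log10 q of each region was printed but not used to rank. The deposited summit offset placed the summit. Unused columns of per-sample values numbered 0, and the replicates shared 0 regions with identical coordinates.

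Lists on ce11 were joined to Ensembl release 115 genes and RefSeq WBcel235 sequence with pandas 2.3.3, numpy 2.4.6, scipy 1.17.1 and matplotlib 3.10.9 under Python 3.11.15. Regions matched with an overlap of at least 1 bp. A summit's place was taken in the order coding exon, UTR, intron, other exon, intergenic, where an intron is that of a coding transcript and an other exon one of a noncoding transcript; introns were numbered on the longest coding transcript. The scripts were tested on simulated data. No p-value was computed, since there was 1 group, and no alignment depth is known.

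The 6 genes, the list of 41 genes and the windows were chosen with earlier results of these data known. Named by rule were the Hox genes, the gene nearest to each optimal summit and to the 10 strongest pooled summits at the loci, listed genes with an optimal summit within 5 kb, unc-119, and up to 3 genes in each stretch as long as that of lin-39. Other neighbours, sap-140, linc-57, mir-231, tbc-6, dct-1 and the rest of the genes in the lin-39 stretch were named after their values were seen, as were single regions other than the 10 strongest. Alternatives were other windows, stricter overlaps, single replicates, stronger regions only and other motif flanks; placing exons of noncoding transcripts before introns was added after seeing the data.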

Additional observations from a re-analysis of the deposited data

How the results depend on the processing

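The counts depend on the window and on the depth of the list. With 5 kb in place of 20 kb, 22 pooled and 1 optimal summits were counted in place of 50 and 4; with 10 kb, 37 and 2. With the 15000 strongest pooled regions 18 summits remained, and with the 744 strongest optimal peaks 1. With each replicate list alone the counts were 46 to 55 ranked summits and, among the 1488 strongest regions, 2 to 3, with a best rank of 460 to 876. The stretch around lin-39 measured 45551 to 50386 bp in single replicates and 59998 bp in the 15000 strongest pooled regions, where 50 of 14547 stretches were as long; the longest on III in the ce10 list, where the gene was not placed, was 57543 bp. Pooled regions in both replicates fell to 9 with 50% overlap of both regions, to 9 with replicate summits within 100 bp, and to 8 with the stronger part of each replicate list. With transcripts of the Hox genes alone, 11 summits were in introns in place of 19, and with exons of noncoding transcripts placed first, chosen after seeing the data, 17 were. TGATNNAT was found at 3 and 13 summits within 50 and 200 bp, TAATTA at 2 and 14. Of 27 such recomputed values, 16 were labelled as moved and 11 as the same, with no single limit for all kinds of result. For example, 37 summits in place of 50 were labelled the same, while a stretch of 50386 bp in place of 57544 bp was labelled as moved. No paired analysis was possible because there was 1 group. Unknown depth limits every count of weak regions.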
